A study of Mus musculus with 16 samples.

Results

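The genes described here are 9 neutrophil granule and S100 genes, S100a8, S100a9, Ngp, Camp, Ltf, Elane, Mpo, Prtn3 and Retnlg, chosen by gene symbol from the 22287 genes of the count table and followed as CPM, a gene's counts scaled to the total of its library, in all libraries. All 9 symbols were found once. The libraries are bulk RNA-seq of bone marrow derived macrophages (BMDMs) grown from the marrow of C57BL/6J mice aged 8 weeks. The marrow was kept for 7 days in GM-CSF (GM) or M-CSF (M), on tissue culture treated (TC) or untreated (noTC) dishes, and taken at steady state or after LPS, a bacterial cell wall component that activates TLR4, for 3 h. This gave 16 libraries in 8 groups of 2, each named by factor and dish (GM-TC, M-noTC and so on), with LPS added to the name where it was given. No group carries a transgene or a deletion, and the GM cultures were also seeded more densely than the M cultures, so growth factor and seeding density cannot be told apart. The medium was not replaced during the 7 days and no sort preceded RNA extraction, so a library holds the RNA of whatever cells the dish held. Nothing in the labels says whether the replicates of a group came from separate animals, so the p-values below measure the spread between libraries, which may be technical.

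Neutrophils fill their granules in a fixed order as they mature in the marrow. Promyelocytes make the azurophil (primary) granule proteins, such as the serine proteases neutrophil elastase (Elane) and proteinase 3 (Prtn3) and the peroxidase Mpo. Myelocytes and metamyelocytes then make the specific (secondary) granule proteins, such as lactoferrin (Ltf), the cathelicidin antimicrobial peptide (Camp) and the related neutrophilic granule protein (Ngp). S100a8 and S100a9 encode the subunits of calprotectin, a calcium, zinc and manganese binding complex that fills the cytosol of neutrophils and is also made by classical monocytes, and Retnlg encodes a resistin-like protein of mature mouse neutrophils. These messages fade as monocytes become macrophages, and in marrow cultures they are used as a sign of granulocytes and their precursors.

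The 9 genes were at low levels, some of them at the floor, in the GM libraries and at or near the counting limit in all M libraries. Their summed level was 14.5 to 35.9 CPM in the 8 GM libraries (median 24.9) and 0.499 to 1.73 CPM in the 8 M libraries (median 0.552). The library totals ranged from 17527802 to 31458363 counts, and 3 counts, taken as the floor of a library, equalled 0.0954 to 0.171 CPM. Macrophage markers were abundant in every library, with a summed level of 8 markers of 2360 to 3103 CPM in GM and 4833 to 8236 CPM in M. Ly6g, the surface antigen by which mouse neutrophils are usually recognised, had 0 to 5 counts in each GM library and 0 in each M library. The labelled cell type was thus matched by its markers in all 16 libraries, while the defining neutrophil surface marker was at or near the floor. Fewer cells of a type and less RNA per cell cannot be told apart in bulk RNA.

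M-noTC-LPS replicate 1 stood apart among the M libraries. Its summed level of the 9 genes was 1.73 CPM, against 0.499 to 0.859 CPM in the other 7 M libraries and 0.535 CPM in its own replicate. It held 21 S100a8, 9 S100a9 and 9 Ngp counts, where its replicate held 2, 1 and 2. The pooled ratios of GM to M for S100a8, S100a9 and Ngp, and the calls that rest on this library, are therefore also given without it. Without it the pooled ratio was 49.9 for Ltf, 8.13 for Camp and 6.05 for Prtn3.

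**Figure D1:**
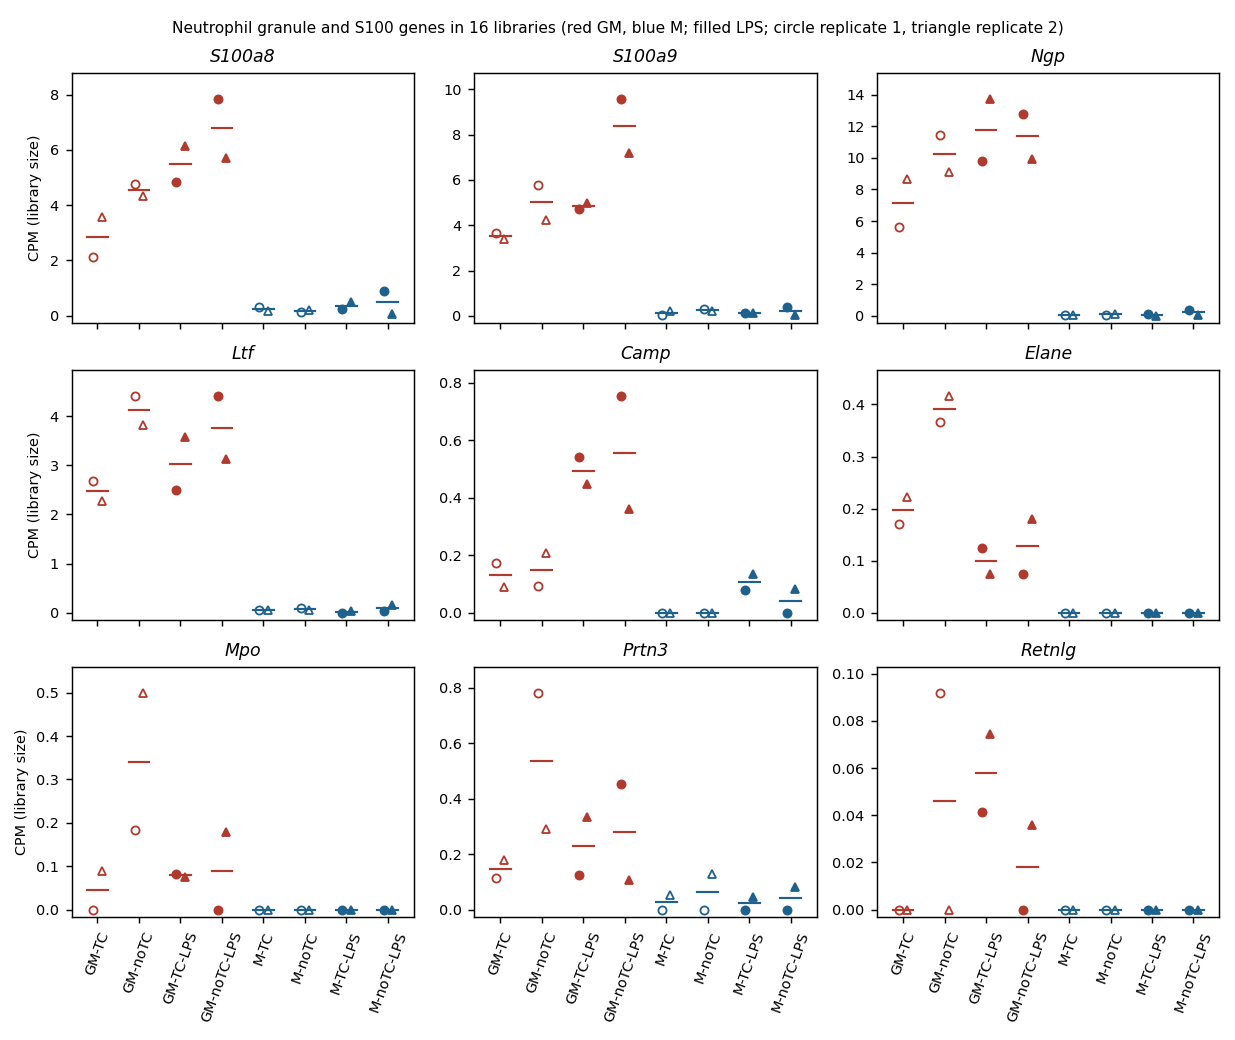
CPM of each of the 9 genes (y axis, by library size, one scale per gene) in the 8 groups (x axis), with GM libraries in red, M libraries in blue, LPS libraries filled, replicate 1 as a circle, replicate 2 as a triangle and the group mean as a bar. Ngp reached 5.59 to 13.7 CPM in the GM libraries and at most 0.389 CPM in the M libraries, while Elane, Mpo and Retnlg had no count in any M library.

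Between genes, levels were compared per kilobase of exon (GENCODE M21 exon lengths). Pooled over the 8 GM libraries, S100a9 had the highest level at 10.7 CPM per kb, followed by Ngp at 8.49 and S100a8 at 7.34 CPM per kb. These 3 genes did not keep the same order in all groups. S100a9 was at 16.04 ± 3.21 and Ngp at 9.31 ± 1.64 CPM per kb in GM-noTC-LPS (SD, n = 2), but at 9.27 ± 0.383 and 9.62 ± 2.26 CPM per kb in GM-TC-LPS, where they differed by less than the spread. Ltf stood at 0.98 and Camp at 0.462 CPM per kb. The azurophil genes were lower still, with Elane at 0.202, Prtn3 at 0.172 and Mpo at 0.0413 CPM per kb, and Retnlg was at 0.0529 CPM per kb. The late myelocyte gene Ngp and the early azurophil gene Elane, both neutrophil lineage genes, thus lay far apart on the same per-length scale. The 2 cathelicidin relatives also lay far apart, with 1982 Ngp and 67 Camp counts over the 8 GM libraries.

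The first comparison was of the growth factors, GM against M with the dish and LPS held equal. All 9 genes had more counts in GM than in M libraries, and 5 or 6 of the 6 genes that could be tested were called higher in GM in each of the 4 comparisons, beside 31.4% to 33.9% of all 12514 tested genes. Elane, Mpo and Retnlg did not pass the expression filter of the test and are given as counts. The 6 that passed did so because of their GM libraries, so their being called is partly built into the filter, and their count is not read as support.

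At steady state, S100a8 stood at 2.11 and 3.57 CPM on TC and 4.77 and 4.33 CPM on noTC in GM, and with LPS at 4.82 and 6.13 CPM on TC and 7.83 and 5.72 CPM on noTC. In the 8 M libraries it ranged from 0.0822 to 0.907 CPM with a median of 0.228. Every GM library was above every M library, and the highest M value was that of M-noTC-LPS replicate 1. Pooled over all libraries, the level was 16-fold higher in GM than in M (95% interval 12.3 to 21.2 from the 973 and 59 counts, which covers counting error only), and 21.7-fold without that library. Over all 12514 genes tested, 7.5% had every GM library above every M library. Of the 9 genes, S100a8, S100a9, Ngp and Ltf had this pattern, as did Elane, which was not tested.

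S100a9, the partner subunit, stood at 3.65 and 3.39 CPM on TC and 5.78 and 4.24 CPM on noTC in GM, and with LPS at 4.70 and 4.98 CPM on TC and 9.56 and 7.19 CPM on noTC. The M libraries ranged from 0.0411 to 0.389 CPM with a median of 0.163. The groups of GM and M libraries did not overlap, and the pooled level was 31.4-fold higher in GM (95% interval 22.2 to 45.9, 1069 and 33 counts), or 37.8-fold without M-noTC-LPS replicate 1. Both subunits were highest in GM-noTC-LPS. The GM libraries held between 0.812 and 1.73 S100a9 counts per S100a8 count.

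Ngp stood at 5.59 and 8.66 CPM on TC and 11.4 and 9.11 CPM on noTC in GM, and with LPS at 9.81 and 13.7 CPM on TC and 12.8 and 9.96 CPM on noTC. In the M libraries it ranged from 0 to 0.389 CPM with a median of 0.0688, or 0 to 9 counts a library. Among the 6 genes with any count in M it had the largest ratio of GM to M, with a pooled level 91.6-fold higher in GM (95% interval 59.7 to 148, 1982 and 21 counts). With 9 of the 21 M counts, M-noTC-LPS replicate 1 again held the highest M value, and without it the ratio was 140-fold (80.1 to 272).

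Ltf, the iron-binding protein of specific granules, stood at 2.68 and 2.28 CPM on TC and 4.41 and 3.83 CPM on noTC in GM, and with LPS at 2.49 and 3.57 CPM on TC and 4.40 and 3.13 CPM on noTC. The M libraries held 0 to 4 counts each. The pooled level was 52.2-fold higher in GM (95% interval 29.7 to 102, 646 and 12 counts), again with no overlap between GM and M libraries.

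Camp, whose peptide is a specific granule antimicrobial, had 3 and 2 counts on TC and 2 and 5 counts on noTC in GM at steady state, and 13 and 12 counts on TC and 20 and 10 counts on noTC with LPS. In M it had no count without LPS, and with LPS 2 and 3 counts on TC and 0 and 2 counts on noTC. The GM and M libraries overlapped, and the pooled level was 9.29-fold higher in GM (95% interval 4.27 to 24.0).

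The azurophil genes were a small part of the signal. Elane had 2 to 10 counts in each GM library and 0 in each M library, a level at least 12.3-fold higher in GM when M is set to the floor of 3 counts over its 8 libraries. Mpo had 0 to 12 counts a library in GM and 0 in M, at least 8.73-fold higher by the same floor. Prtn3, the neighbour of Elane on chromosome 10, had 2 to 17 counts in GM libraries and 0 to 4 in M libraries, a pooled ratio of 6.91 (95% interval 3.28 to 16.8). Retnlg was at or under the floor in every library, with 6 counts over the 8 GM libraries and 0 over the 8 M libraries, so no fold is given. Elane, Mpo and Prtn3 gave 122 of the 4865 counts of the 9 genes in GM.

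**Figure D2:**
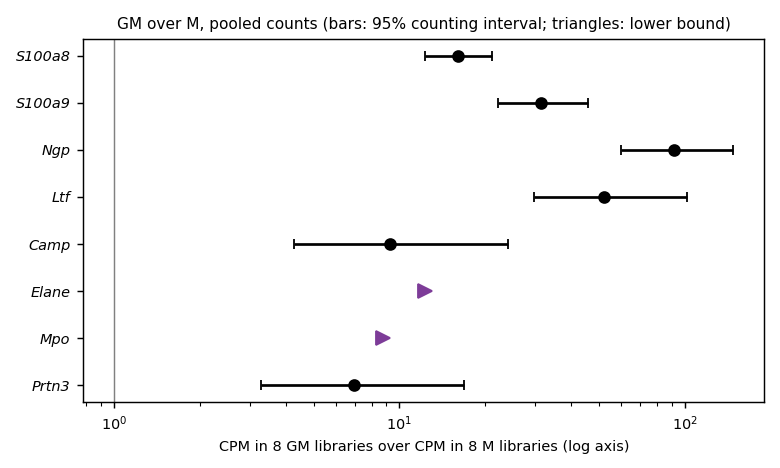
Ratio of the level in the 8 GM libraries to that in the 8 M libraries (x axis, log scale, pooled CPM) for 8 of the 9 genes (y axis), with 95% counting intervals as bars and triangles where M had no count and the value is a lower bound. Ngp lies furthest right at 91.6, and Retnlg, at or under the floor in every library, is not shown.

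An exact permutation test, in which GM and M labels were exchanged within each dish and LPS condition (2-sided, 1296 arrangements), gave p = 0.00154 for the mean CPM of S100a8, S100a9, Ngp, Camp, Ltf, Elane and Prtn3, which is the smallest this test can give. Mpo gave p = 0.0139 and Retnlg p = 0.0833 in the same exact test. No verdict on single genes is drawn from these p-values. Any gene whose 8 GM libraries all lie above, or all below, the 8 M libraries also gives p = 0.00154 in this exact permutation test. That held for 7.5% (above) and 9.19% (below) of the 12514 tested genes, so at least these shares reach it. The same p follows where GM and M separate in the same direction within each condition, as for Camp and Prtn3. Within single conditions, the GM and M libraries of 82.2% to 87.4% of tested genes did not overlap. The test was added after the values were seen, so its p-values are not read as support.

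In the fit across all genes (edgeR quasi-likelihood, Benjamini-Hochberg adjustment), GM was set against M in each condition. On TC at steady state, S100a8, S100a9, Ngp, Ltf and Camp were higher in GM-TC than in M-TC, where 32.6% of all tested genes were called higher and 28.9% lower. In the same comparison with LPS the same 5 genes were called, beside 33.9% of all genes called higher and 32.9% lower. On noTC at steady state all 6 tested genes were called higher in GM-noTC, beside 31.4% higher and 30.7% lower, and with LPS 5 were, beside 33.5% higher and 32.6% lower. None of the genes was called lower in GM in any of the 4. The median log2 fold change of the 6 tested genes was 4.72 on TC, 4.55 on TC with LPS, 4.79 on noTC and 4.52 on noTC with LPS, against 0.02, 0.03, 0.00 and 0.02 over all tested genes. These 6 genes passed the filter because of their GM libraries, so high medians are partly built into it and are not read as support.

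Prtn3 was the gene that varied between these calls. Its log2 fold change was 2.51 ± 1.63 (SE, n = 2 per group) on TC (adjusted p = 0.19), 3.22 ± 1.47 on TC with LPS (0.0592), 2.99 ± 0.95 on noTC (0.00898) and 2.67 ± 1.23 on noTC with LPS (0.0615). Camp on TC was just past the threshold (adjusted p = 0.0497) on 5 GM-TC counts against 0 and was not called after any 1 of the 4 libraries was left out (adjusted p 0.0621 to 0.147). Camp was also lost on TC with LPS after any 1 library was left out (0.0508 to 0.145), and on noTC without GM-noTC replicate 2 (0.113), M-noTC replicate 1 (0.0515) or M-noTC replicate 2 (0.0906). The Prtn3 call on noTC was lost without GM-noTC replicate 1 (0.165) or M-noTC replicate 1 (0.0715). The log2 fold changes of S100a8 lay between 3.86 and 4.83 and those of Ngp between 5.66 and 7.43 over the 4 comparisons. The lowest Ngp value, on noTC with LPS, is the one that includes M-noTC-LPS replicate 1. Without that library, that comparison gave log2 fold changes of 6.35 for S100a8, 7.58 for S100a9 and 7.10 for Ngp. They rest on 2, 1 and 2 M counts in a single library whose spread is taken from the other groups, as in every comparison with a library left out, so their size is uncertain. By library size the median gene moved by -0.29 at steady state on both dishes, and Camp on TC was then not called (adjusted p = 0.0608).

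S100a8 and S100a9 lie near each other on chromosome 3, Ngp, Camp and Ltf on chromosome 9, and Elane and Prtn3 on chromosome 10. Because these genes moved together between GM and M, the 250 bases before the transcription start of S100a8, S100a9, Ngp and Ltf are printed, with Camp beside them as the weakly expressed relative of Ngp (RefSeq, GRCm38.p6, 5′ to 3′ on the strand of the gene). Capitals mark matches to 4 short patterns on either strand. For C/EBP factors TTGCNNAA was searched. For PU.1 the letters GAGGAA were searched. Core binding factor sites were searched as TGTGGT, and the TATA box was searched as TATAAA. C/EBP, PU.1 and core binding factors are known for their part in granulocyte gene expression.
S100a8 (chr3:90668821-90669070, plus strand): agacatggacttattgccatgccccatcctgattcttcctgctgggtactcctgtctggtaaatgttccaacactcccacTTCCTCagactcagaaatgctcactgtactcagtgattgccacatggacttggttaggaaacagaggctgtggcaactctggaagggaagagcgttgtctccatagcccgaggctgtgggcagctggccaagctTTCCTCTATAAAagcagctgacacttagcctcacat
S100a9 (chr3:90695722-90695971, minus strand): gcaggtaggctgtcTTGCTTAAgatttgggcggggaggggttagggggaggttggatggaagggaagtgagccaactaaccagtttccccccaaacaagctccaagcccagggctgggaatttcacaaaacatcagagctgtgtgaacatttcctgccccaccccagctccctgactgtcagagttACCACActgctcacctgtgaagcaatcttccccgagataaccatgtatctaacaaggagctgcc
Ngp (chr9:110419558-110419807, plus strand): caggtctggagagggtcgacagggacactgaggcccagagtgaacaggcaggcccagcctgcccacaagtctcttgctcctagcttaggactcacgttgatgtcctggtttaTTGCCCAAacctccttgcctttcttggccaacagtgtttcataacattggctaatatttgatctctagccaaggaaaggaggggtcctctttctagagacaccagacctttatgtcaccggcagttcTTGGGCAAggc
Ltf (chr9:111019042-111019291, plus strand): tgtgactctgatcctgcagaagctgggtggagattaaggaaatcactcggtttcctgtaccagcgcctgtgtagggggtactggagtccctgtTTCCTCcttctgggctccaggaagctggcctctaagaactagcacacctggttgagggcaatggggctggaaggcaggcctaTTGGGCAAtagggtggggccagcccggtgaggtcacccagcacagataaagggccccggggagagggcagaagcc
Camp (chr9:109849457-109849706, minus strand): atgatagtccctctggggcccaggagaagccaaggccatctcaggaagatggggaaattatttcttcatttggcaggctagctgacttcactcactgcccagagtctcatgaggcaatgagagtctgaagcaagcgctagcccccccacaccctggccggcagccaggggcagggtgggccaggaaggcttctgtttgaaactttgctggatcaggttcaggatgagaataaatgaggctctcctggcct
The C/EBP pattern occurred once in S100a9, in 2 places in Ngp and once in Ltf, and in 4 of the 9 windows in all, against 9.56% of the 32851 windows of the same length. In Ngp the matches began 138 and 11 bases before the start. The PU.1 pattern was in 5 of 9 windows (S100a8, Ltf, Elane, Mpo and Prtn3) against 23.3% of all, the core binding factor pattern in that of S100a9 (14% of all) and the TATA box in that of S100a8 (12.4% of all). In S100a8 a PU.1 match directly precedes the TATA box, so both read as a single run of capitals. No match was found for Camp. A match is a description of these letters only.

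The traces in M were then set against the reads a library may take from others. Some genes that were abundant elsewhere (100 CPM or more) were at 0 to 0.0223% of their level in the TC libraries without LPS, while no such gene fell below 0.433% in the other M libraries or 0.859% in the other GM libraries. The part of reads shared between libraries in the M values was not tested. The M level was then taken as a percentage of the GM level, with M-noTC-LPS replicate 1 included. It was 6.25% for S100a8, 3.18% for S100a9, 1.91% for Ltf and 1.09% for Ngp. In the M-TC libraries, where the lower limit was 0, S100a8 had 6 and 3 counts and Ngp 1 and 1. These counts are at or near the floor. The limit is the lowest over many genes, so it does not bound the shared reads of any single gene. S100a8 thus kept a larger part of its GM level in M than Ngp did, and the GM libraries held 1.63 to 2.65 Ngp counts per S100a8 count, the M libraries 0 to 1. The share estimated for the noTC libraries without LPS (0.675% in GM, 0.60% in M) was subtracted from those libraries alone. All 6 growth factor calls on noTC stayed. The subtraction takes relatively more from the low M counts, so it could hardly have removed a call. The TC and LPS libraries were not altered, so the growth factor calls of the other conditions were not tested in this way.

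The second comparison was of the dishes, noTC against TC. At steady state all 6 tested genes had a higher estimate in GM-noTC than in GM-TC and none passed the test (edgeR, 0 called, DESeq2 0 called), beside 4.69% of all genes called higher and 2.85% lower. At an unadjusted p under 0.05, 2 of the 6 did, Ngp and Ltf. S100a8 differed by 0.64 ± 0.32 on the log2 scale (SE, n = 2 per group, adjusted p = 0.269), S100a9 by 0.50 ± 0.24 (0.251), Ngp by 0.49 ± 0.22 (0.199) and Ltf by 0.73 ± 0.26 (0.0994). For these 4 genes both GM-noTC libraries were above both GM-TC libraries in CPM, a pattern that 23.7% of all tested genes had. The GM-TC replicates differed more from each other than those of any other group (chi-square per degree of freedom over tested genes 12.9, against 1.92 to 5.28). In CPM, replicate 1 was the lower for S100a8 and Ngp and the higher for S100a9 and Ltf. Prtn3 differed by 1.77 ± 0.90 (0.276) and Camp by 0.257 ± 0.997 (0.926). Without GM-TC replicate 1 none of the 6 was called, without GM-TC replicate 2 Ngp was, and without the expression filter Ngp and S100a8 were.

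The azurophil genes showed the widest spread over dishes. In GM-TC, Elane had 3 and 5 counts, Mpo 0 and 2 and Prtn3 2 and 4, and in GM-noTC they had 8 and 10, 4 and 12, and 17 and 7. The libraries of the dishes did not overlap for any of the 3 genes, again beside the 23.7% of tested genes with this order. Summed, which was decided after the values were seen, the 3 genes had 58 counts in GM-noTC and 16 in GM-TC, a ratio of 3.16 (95% counting interval 1.79 to 5.89). The other 6 genes together had a ratio of 1.47 (1.33 to 1.62). With 2 libraries a side an exact permutation test cannot go below p = 0.333, and these intervals leave out the spread between cultures.

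With LPS, S100a9 alone was called for the dish, at 7.19 and 9.56 CPM in GM-noTC-LPS against 4.70 and 4.98 in GM-TC-LPS (log2 fold change 0.81 ± 0.21, adjusted p = 0.0391), beside 2.08% of all genes called higher and 0.727% lower. The call was not kept with library sizes in place of TMM (adjusted p = 0.0536), with DESeq2 (0.0576), or without GM-TC-LPS replicate 1 (0.281), GM-TC-LPS replicate 2 (0.186) or GM-noTC-LPS replicate 1 (0.385). Ngp differed by -0.04 ± 0.20 (adjusted p = 0.969), its levels overlapping between the dishes. The azurophil sum was 27 counts in GM-noTC-LPS and 21 in GM-TC-LPS, a ratio of 1.21 (0.656 to 2.24). In M, none of the 6 genes was called for the dish, either at steady state (16.1% of all genes called higher, 11.1% lower) or with LPS (10.4% higher, 12.9% lower). None reached an unadjusted p under 0.05 in M, and DESeq2 called 0 in both.

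The third comparison was of LPS against no LPS. In GM, the S100 genes, Ngp and Camp were higher upon LPS challenge on both dishes, relative to the median gene. On TC, 5 of 6 tested genes were called higher, beside 32.8% of all genes called higher and 34.2% lower, and on noTC 4 were, beside 33.6% higher and 34% lower. None was called lower. S100a8 rose by 1.40 ± 0.31 on the log2 scale in GM-TC (adjusted p = 0.000437) and 1.08 ± 0.28 in GM-noTC (0.00177). S100a9 rose by 0.94 ± 0.24 (0.00164) and 1.25 ± 0.21 (2.24e-05). For both subunits the LPS libraries lay above the libraries without LPS on each dish in CPM, as did those of 19.8% of all tested genes on TC and 19.7% on noTC.

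Ngp rose by 1.19 ± 0.21 on TC (4.62e-05) and 0.66 ± 0.20 on noTC (0.00667), although in CPM its GM-noTC and GM-noTC-LPS libraries overlapped. Camp rose by 2.39 ± 0.78 (0.0113) and 2.32 ± 0.71 (0.00689), from 5 to 25 counts on TC and from 7 to 30 on noTC. Ltf rose by 0.78 ± 0.27 in GM-TC (0.0133) and differed by 0.38 ± 0.24 in GM-noTC (0.167). Within the specific granule group the estimates thus ran from Ltf, the lowest, to Camp, the highest, on both dishes.

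These calls depend on the scaling. With library size in place of TMM, the median gene moved by -0.53 (TC) and -0.54 (noTC) on the log2 scale upon LPS in GM, against -0.05 and -0.03 with TMM. S100a8, Ngp and Camp were then called in GM-TC, and S100a9 and Camp in GM-noTC. Ltf in GM-noTC changed sign, to -0.13. Camp, at 1.92 and 1.83, was called on both dishes by both scalings. Leaving out GM-TC replicate 2 left S100a8, S100a9 and Ngp called on TC, and leaving out GM-noTC-LPS replicate 1 left S100a8 and S100a9 called on noTC, so Camp depended on these libraries. Camp was also lost without GM-TC-LPS replicate 1 and without GM-noTC replicate 1, Ltf without GM-TC replicate 2 and without GM-TC-LPS replicate 2, and Ngp on noTC without GM-noTC replicate 2 and without GM-noTC-LPS replicate 1.

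**Figure D3:**
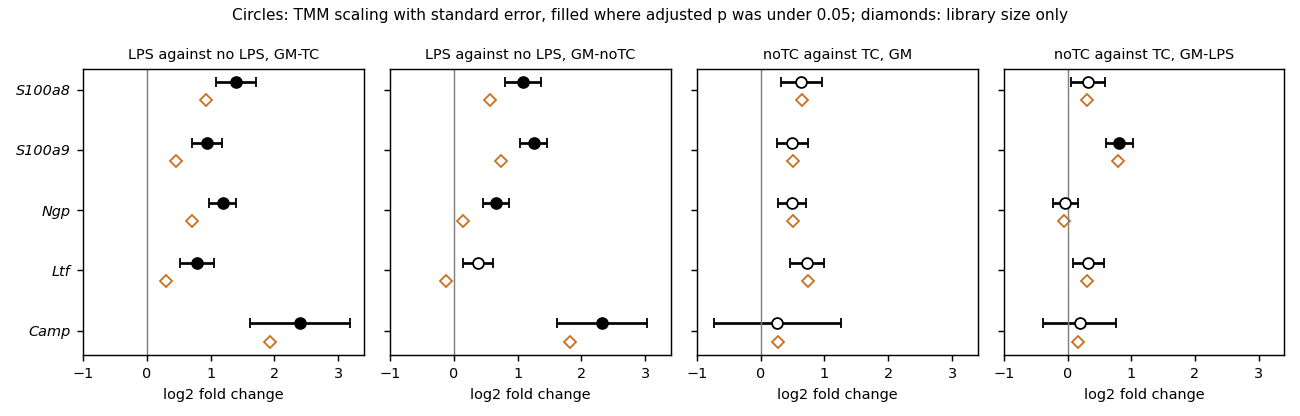
Log2 fold changes (x axis) of 5 genes (y axis) for LPS against no LPS in GM-TC and GM-noTC and for noTC against TC in GM without and with LPS. Circles are TMM estimates with their standard error, filled where the adjusted p was under 0.05, and diamonds are estimates by library size, which lie lower in both LPS panels and close to the circles in the dish panels. Camp has the highest estimates upon LPS, 2.39 and 2.32.

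The azurophil genes had fewer counts, not more, with LPS on noTC. Elane had 8 and 10 counts in GM-noTC and 2 and 5 in GM-noTC-LPS, and 3 and 5 in GM-TC and 3 and 2 in GM-TC-LPS. Mpo had 4 and 12 counts in GM-noTC and 0 and 5 in GM-noTC-LPS. The sum of Elane, Mpo and Prtn3 was 58 counts in GM-noTC and 27 in GM-noTC-LPS, a ratio of 0.392 (95% counting interval 0.239 to 0.629) by library size, whereas on TC it was 16 and 21 counts (1.03, 0.511 to 2.11). By library size the other 6 genes had ratios of 1.28 (1.19 to 1.38) on noTC and 1.58 (1.44 to 1.74) on TC. Prtn3, the member of the azurophil group that was tested, differed by -0.42 ± 0.75 (adjusted p = 0.642) on noTC.

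The ratios between genes of the same library do not depend on the scaling. Pooled over dishes, GM libraries held 2.34 Ngp counts per S100a8 count without LPS (95% counting interval 2.05 to 2.67, libraries 2.11 to 2.65) and 1.89 with LPS (1.71 to 2.08, libraries 1.63 to 2.24). Camp counts per Ngp count were 0.0158 without LPS (0.00812 to 0.0277) and 0.045 with LPS (0.0337 to 0.059), and the libraries of the 2 conditions did not overlap, at 0.00803 to 0.0306 and 0.0325 to 0.0588. Ltf per Ngp was 0.376 (0.327 to 0.432) and 0.295 (0.261 to 0.332), with overlapping libraries.

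**Figure D4:**
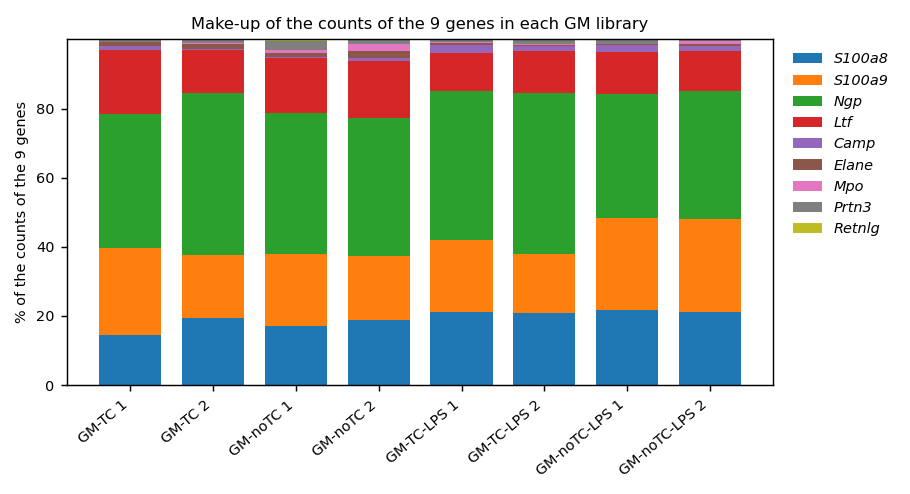
Share of the counts of the 9 genes (y axis, percent) taken by each gene in the 8 GM libraries (x axis, group and replicate). Ngp, S100a9, S100a8 and Ltf make up nearly all of every bar, while the band of Camp is wider in the LPS libraries, and that of Mpo is widest in GM-noTC replicate 2 at 2.18%.

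In M, 1 gene was called upon LPS on each dish. On TC it was Camp, with 0 and 0 counts against 2 and 3 (adjusted p = 0.0318), beside 37.6% of all genes called higher and 36.4% lower. On noTC it was S100a8, with 3 and 7 counts against 21 and 2 (log2 fold change 2.05 ± 0.77, adjusted p = 0.0218), beside 36.4% higher and 35.9% lower. The Camp call was lost without M-TC replicate 1, M-TC replicate 2 or M-TC-LPS replicate 2. Without M-noTC-LPS replicate 1 the S100a8 estimate was -0.44, so this call rests on that library, and it was also lost without M-noTC replicate 1. With library size in place of TMM neither was called, the median of all tested genes being -0.83 on TC and -0.73 on noTC.

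No difference between 2 responses was called for any of the 6 genes (0 by edgeR, 0 at an unadjusted p under 0.05 and 0 by DESeq2 in each of 5 interactions). Of all tested genes, 0.783% were called for the interaction of dish and LPS in GM and 10.6% in M. For the interaction of growth factor and LPS the shares were 41.1% on TC and 36.2% on noTC, and for dish and growth factor at steady state 11.2%. The lowest adjusted p among the 6 genes was 0.364. In M, where no member had over 21 counts in a library, the depth limits what such a test can show.

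The other genes of neutrophil granules were then examined, from lists drawn up with earlier results known. The counts called in each list stand beside the shares over all tested genes. In the 4 growth factor comparisons these shares were 31.4% to 33.9% higher in GM and 28.9% to 32.9% lower. By library size in place of TMM, each growth factor count of these lists changed by at most 1 gene in either direction. The median log2 fold change of GM over M at steady state on TC was 3.28 for the specific and gelatinase granule companions, 0.87 for the azurophil companions, 2.43 for the mature neutrophil genes and 1.36 for the immature granulocyte genes, against 0.02 over all tested genes. Where genes of a list passed the expression filter through their GM libraries, a high median is partly built into the filter. These medians are therefore not read as support. Of 10 specific and gelatinase granule companions, 9 were tested. On TC at steady state 6 were higher and 3 lower in GM, and on noTC 6 and 3, with the same counts on noTC with LPS and 5 and 2 on TC with LPS. The most abundant were far above the 9 genes themselves. Anxa1, the glucocorticoid-induced annexin of gelatinase granules, had 1136 to 1697 CPM, Chil3, a chitinase-like protein also made by alveolar and alternatively activated macrophages, 485 to 967 CPM and Mmp8, neutrophil collagenase, 519 to 1020 CPM in GM libraries. In counts, Chil3 had 12324 to 23147 in GM libraries and 51 to 72 in M libraries. Mmp8 had 12487 to 24393 counts in GM libraries and 273 to 496 in M libraries. Upon LPS, 5 were called higher and 2 lower in GM-TC with TMM (32.8% and 34.2% of all tested genes), but 3 and 4 by library size. Adam8, a metalloprotease shared with monocytes, was lower in GM by 1.49 ± 0.05 on the log2 scale on noTC at steady state (adjusted p = 2.1e-16). Pglyrp1, a peptidoglycan binding protein of specific granules named here after its values were seen, had 1 to 9 counts in GM libraries and 0 in M libraries.

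Of 6 azurophil companions, 3 were tested, all of them lysosomal genes that macrophages also express, with 2 higher and 0 lower in GM on TC and 2 and 1 on noTC at steady state. Lyz2, lysozyme, was higher in GM by 0.87 ± 0.05 on TC (adjusted p = 5.99e-13) and the tetraspanin Cd63 by 0.89 ± 0.05 (1.13e-12). Gusb, a lysosomal glucuronidase, was called lower in GM on noTC. The azurophil genes more particular to granulocytes were scarce, with Ctsg at 0 to 4 counts in every library and Prss57 at 0 to 7, and Bpi had no count in any library, which allows up to 3 counts a library.

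Among 16 mature neutrophil genes found in the table, 12 were tested. Of these, 8 were higher and 1 lower in GM on TC at steady state and 9 and 1 in each of the other 3 comparisons. Some, such as Wfdc21 with 0 to 3 counts in M libraries, passed the expression filter through their GM libraries. Their being called is partly built into the filter, and the count of this list is not read as support. The gene called lower was Csf3r, the G-CSF receptor, by 3.67 ± 0.13 on TC (adjusted p = 1.14e-16). Fpr1 and Fpr2, formyl peptide receptors, were called higher in GM and also shared by M libraries, where Fpr1 had 113 to 164 counts without LPS and 1254 to 3164 with it. Wfdc21, a small whey acidic protein chosen after its values were seen, had 195 to 710 counts in GM libraries and 0 to 3 in M libraries. Stefin genes of mature neutrophils, likewise chosen after the fact, were low, with Stfa1 at 0 to 4 and Stfa3 at 3 to 26 counts in GM libraries.

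Among 8 immature granulocyte genes, 5 were tested, 3 higher and 0 lower in GM on TC and 4 and 0 on noTC at steady state, and 3 and 1 on each dish with LPS. Kit, the stem cell factor receptor, which mast cells also carry, was higher in GM by 2.41 ± 0.13 on TC (adjusted p = 4.98e-13), and Cd34 by 0.75 ± 0.18 (0.000899). Gfi1, a repressor needed for neutrophil commitment, was higher in GM on noTC by 2.87 ± 0.51 (4.04e-05) and lower in GM with LPS by 1.38 ± 0.13 on TC (2.68e-09). Its counts were higher with LPS in both cultures. They were 3 to 5 in M libraries without LPS and 332 to 711 with it, and 7 to 20 and 208 to 303 in GM libraries. Ms4a3 and Fcnb, promyelocyte and myelocyte genes outside the naming rule, had at most 8 and 9 counts in GM libraries.

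**Figure D5:**
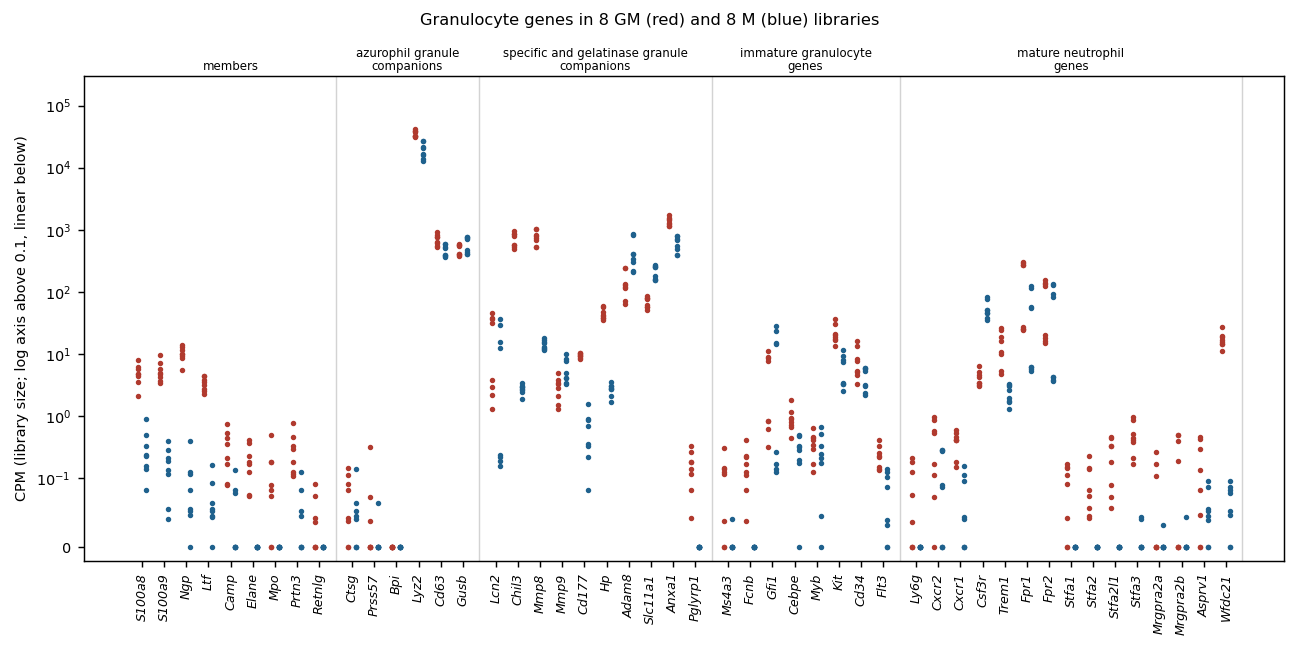
CPM (y axis, log scale above 0.1 and linear below) of the 9 genes and of genes from 4 lists of granulocyte genes (x axis) in the 8 GM libraries (red) and the 8 M libraries (blue), each point a library. Lyz2 and Anxa1 are abundant in all libraries and Chil3 and Mmp8 in GM libraries, while Ly6g, Pglyrp1 and Stfa1, at most 9 counts a library, lie near 0.

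Most genes that handle granule cargo were called higher in GM as well. Of all tested genes, 31.4% to 33.9% were called higher in GM in these comparisons and 28.9% to 32.9% lower. Of 6 genes of protease activation, packing and inhibition, 5 were higher and 1 lower in GM on TC at steady state, 4 and 1 with LPS, 5 and 0 on noTC and 4 and 0 on noTC with LPS. Ctsc, the protease that activates the granule serine proteases, rose upon LPS in all 4 cultures, as did Srgn, the proteoglycan that packs granule proteins, and both were abundant in M as well. Of 5 receptors and partners of S100A8/S100A9, 4 were tested and 3 higher and 0 lower in GM on TC, 4 and 0 on noTC, and 3 and 1 on each dish with LPS. Tlr4, their receptor and that of LPS, had 1944 to 6053 counts in GM libraries and 3352 to 8266 in M libraries. Ager, the other receptor, had 0 to 5 counts in any library.

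The other S100 genes lay in both directions. Of 14, 6 were tested, and 4 were higher in GM in each comparison while 1 on TC and 2 on noTC were lower. The shares of all tested genes were 31.4% to 33.9% higher and 28.9% to 32.9% lower. S100a11 had 6369 to 11595 counts in GM libraries and 753 to 2691 in M libraries, and S100a4 was higher in M, with 7934 to 17419 counts there. S100a3, S100a5, S100a14, S100a16, S100b, S100g and S100z were at or under the floor in every library. Of the other resistin-like genes, Retn and Retnlb had no count in any library and Retnla at most 3.

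The genes whose pattern over the 16 libraries was most like that of a member were sought by Pearson correlation of log2(TMM CPM + 1), as a description. The 16 points share their growth factor and scaling, so any gene high in GM scores highly. For S100a8 these were S100a9 (r = 0.98), Ly6c2 (0.979), Pmepa1 (0.979), Ms4a8a (0.977) and Car4 (0.977). For S100a9 they were Mucl1 (0.993), Ly6c2 (0.992), Sema6d (0.987), Aldh1a2 (0.986) and Wfdc21 (0.984), and for Ngp they were Wfdc21 (0.995), Bpifc (0.993), P2rx5 (0.993), Itga1 (0.991) and Rab27b (0.99). Ly6c2, the antigen of classical monocytes, was near the top for both S100 genes and had 246 to 1921 counts in GM libraries and 1 to 10 in M libraries. The summed level of 4 monocyte markers was 46.7 to 128 CPM in GM and 4.02 to 22.0 CPM in M. In each comparison 3 or 4 of the 4 were called higher in GM, beside 31.4% to 33.9% of all tested genes. With so few M counts, Ly6c2 passed the expression filter through its GM libraries. Its call is thus partly built into the filter, and the count is not read as support. The part of monocytes in the S100 levels was not tested.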

How the data were processed

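RNA-seq was run on 16 BMDM libraries on an Illumina Novaseq6000. Messenger RNA was enriched with oligo(dT). The authors aligned reads with HISAT2 and quantified genes with RSEM, and the submitters' processing notes also name fastp 0.18.0, Bowtie2 2.2.8 and StringTie 1.3.1. The genome build and strand setting are not given in the sources used here. The deposited values are RSEM expected counts per gene, not normalized, with totals of 17527802 to 31458363 a library, so 3 counts equal 0.0954 to 0.171 CPM.

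Expected counts were rounded. edgeR 4.0.16 (R 4.3.3; filterByExpr, TMM, glmQLFit, glmQLFTest) was fitted to all 16 libraries with 8 groups and 12514 genes, and a call is a Benjamini-Hochberg adjusted p under 0.05 over all of them. Fold changes are on the TMM scale, CPM by library size. Their standard errors were back-calculated as the absolute log2 fold change over the square root of the quasi-likelihood F statistic, so they are approximate. The authors used DESeq2 with thresholds on the p-value and the fold change; DESeq2 1.42.0 and a fold change above 2 with an unadjusted p under 0.05 were alternatives, beside library size or DESeq2 size factors, no filter, a replicate block, subtraction of shared reads, the libraries of the comparison alone, and leaving out each library. The script was tested on simulated counts. Pooled ratios have exact binomial intervals (95%, counting error only). These intervals, the ratios between genes, the azurophil sum and the stratified permutation test were added after the values were seen. Groups came from the sample titles.

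The 9 genes and the 16 other lists were chosen with earlier results of these data known, so they are not independent support. Named list genes are the 4 most abundant of a list and those at the floor throughout. Ager, Fcnb, Ly6g, Mertk, Mrc1, Ms4a3, Pglyrp1, Prss57, Stfa1, Stfa3 and Wfdc21 fall outside this rule and were chosen after their values were seen. One listed gene is counted within its list and not reported here by itself.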

Additional observations from a re-analysis of the deposited data

How the results depend on the processing

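In counts of the 9 genes called, the 4 growth factor comparisons stayed within 1.5 times of 5, 5, 6 and 5 under every alternative run. Elane and Mpo, which did not pass the filter of the main fit, enter some of these counts. Without the expression filter Elane was called higher in GM on TC, and Elane and Mpo were on noTC, where 8 genes were called. Some runs with a library left out also brought Elane or Mpo into the tested set. With library size only, the dish call in GM-LPS went from 1 to 0, and the LPS calls from 5 to 3 in GM-TC, 4 to 2 in GM-noTC, 1 to 0 in M-TC and 1 to 0 in M-noTC. Without the expression filter the dish gave 2 calls in GM in place of 0, and LPS 2 in M-noTC. DESeq2 gave 0 for the dish in GM-LPS and 2 for LPS in M-noTC, and subtraction of shared reads 2 for LPS in M-noTC. A fold change above 2 with an unadjusted p gave 0 for the dish in GM-LPS and 3 for LPS in GM-TC. With only the libraries of the comparison, LPS gave 0 calls in M-TC and 0 in M-noTC, where 0 of the genes passed the filter. Leaving out each replicate in turn gave 0 to 1 calls for the dish in GM and 0 to 1 in GM-LPS, 3 to 5 for LPS in GM-TC, 2 to 4 in GM-noTC, 0 to 1 in M-TC and 0 to 2 in M-noTC, and 0 to 1 for the interaction of growth factor and LPS on noTC (S100a8, without M-noTC-LPS replicate 2). The S100a8 estimate for LPS in M-noTC reversed to -0.44 without M-noTC-LPS replicate 1 (adjusted p = 0.776) and ranged up to 2.93 without its replicate 2. Of the gene by comparison values, 340 kept direction and call, 48 lost the call and 1 reversed. Apart from scaling, fewer libraries and fewer genes tested, the cause was not tested.

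Same-numbered replicates did not deviate together (r between -0.07 and 0.06), so no pairing by number was seen. With 2 libraries a group this cannot show whether same-numbered libraries share an animal or a culture day. With the replicate block the counts of calls were 4, 5, 6 and 5 for the growth factors, 0, 1, 0 and 0 for the dish, 5, 4, 1 and 1 for LPS and 0 for each interaction, and Camp on TC lost its growth factor call (adjusted p = 0.0599). Depth limits the M values and Elane, Mpo, Prtn3 and Retnlg.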

Other observations

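Markers of other cell types that marrow cultures can hold also differed between GM and M. In these 4 comparisons 31.4% to 33.9% of all tested genes were called higher in GM and 28.9% to 32.9% lower. Of 3 tested mast cell and basophil markers, 3 were higher in GM in all 4 conditions, with a summed level of 6 markers of 2.99 to 7.30 CPM in GM and 0.0411 to 0.208 CPM in M. At such M levels the 3 tested markers passed the expression filter through their GM libraries. Their being called is thus partly built into the filter, and their count is not read as support. Gata2, a transcription factor of mast cells and progenitors, had 30 to 133 counts in GM libraries and 0 to 3 in M libraries, and Cpa3, the mast cell carboxypeptidase, 8 to 37 and 0 to 1. Of 3 tested platelet and megakaryocyte markers, 3 were higher in GM in all 4 conditions, and the summed level of 4 was 37.8 to 52.5 CPM against 5.71 to 8.36 CPM. Pf4, a platelet chemokine that macrophages also express, had 473 to 765 counts in GM libraries.

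Of 6 eosinophil markers 2 were tested, 1 of them higher and 1 lower in GM in each condition. Siglecf, which alveolar macrophages share, had 1112 to 1983 counts in GM libraries, whereas the eosinophil granule genes Prg2 and Epx had at most 4 in any library and Prg3 had 0. Of 2 tested B cell markers, 1 or 2 were lower in GM, with a summed level of 6 markers of 6.91 to 24.0 CPM in GM and 19.8 to 102 CPM in M, nearly all of it Ighm. T and NK cell markers summed to at most 1.79 CPM and erythroid markers to at most 1.04 CPM in any library. Of 8 macrophage markers, 2 were higher and 6 lower in GM in all 4 conditions, the 2 being Mertk and Mrc1, a receptor for dying cells and the mannose receptor.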
